A study of Mus musculus with 4 samples.

Results

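The genes described here are 10 genes that mark mast cells, the granule-filled immune cells that line the vessels and nerves of the dermis. They are Cma1, Mcpt4, Tpsb2, Tpsab1 and Cpa3, which encode granule proteases, Kit, Fcer1a and Ms4a2, which encode surface receptors, Hdc, which encodes the histamine-forming enzyme, and Gata2, which encodes a transcription factor. They were chosen by name, and 10 of the 10 are among the 24441 genes of the deposited table. RNA from skin biopsies was sequenced in 4 libraries, 2 of GSDMD KO mice (genotype GSDMD-/-) and 2 of wild type (WT) mice. All 4 animals were labelled as female C57BL/6 mice of 8 weeks. All 4, the WT controls included, had received bleomycin (BLM) under the skin on alternate days until day 28, so untreated skin is not part of the comparison. BLM is a cytotoxic antibiotic that scars the skin where it is injected and is used to model scleroderma. Gasdermin D, the product of Gsdmd, forms the membrane pores of pyroptosis, and the KO line was made by Cas9 editing of C57BL/6 eggs, so that the deletion is not limited to any cell type.

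Mast cells of mouse connective tissue store chymases (Cma1, Mcpt4), tryptases (Tpsb2, Tpsab1) and carboxypeptidase A3 (Cpa3) in granules, bound to heparin on the proteoglycan serglycin. Stem cell factor, acting on Kit, keeps them alive in the skin. Antigen that cross-links IgE on the high-affinity receptor, built from Fcer1a, Ms4a2 and Fcer1g, makes them release proteases and histamine within minutes and newly made lipid mediators after that. Several of these genes are also used by other cells: Kit by melanocytes, Gata2 by endothelium, Hdc by basophils and some other myeloid cells, and Fcer1a by basophils.

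The 4 libraries are not alike. Values are FPKM, fragments scaled to transcript length and library depth. Depth was estimated, and 3 fragments on a 1 kb transcript would stand at 0.172 to 0.235 FPKM. Gsdmd was at 14.0 and 18.2 FPKM in the WT libraries and at 3.53 and 2.26 FPKM in the KO libraries. On the first principal component of all tested genes the WT libraries stood at -27.7 and -53.9, KO replicate 1 at 6.17 and KO replicate 2, far from the rest, at 75.4. The library of KO replicate 2 was also the only one with Y-linked transcripts: 4 of 4 listed genes were above 0 there, with a sum of 1.78 FPKM, and all 4 were at 0 in the other libraries, although every animal was labelled as female. The comparison of the 8 tested members is therefore also given without each KO library, whereas the ratios, the other pathway genes and the marker lists are given with all 4 libraries.

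The promoters of Cma1, Mcpt4, Cpa3 and Hdc are shown because these are the chymases, the carboxypeptidase and the histamine enzyme that the comparison turns on, and because Gata2 encodes a factor known to act on mast cell genes. The windows, taken from RefSeq (build GRCm38.p6), run from 250 bases before the transcription start to 50 bases after it, written 5′ to 3′ on the strand of the gene. Capitals mark each match to the GATA motif, searched on both strands as the letters GATA with adenine or thymine before them and adenine or guanine after them (TATC in the middle where the match is on the other strand).
Cma1 promoter, chr14:55944626-55944925, minus strand: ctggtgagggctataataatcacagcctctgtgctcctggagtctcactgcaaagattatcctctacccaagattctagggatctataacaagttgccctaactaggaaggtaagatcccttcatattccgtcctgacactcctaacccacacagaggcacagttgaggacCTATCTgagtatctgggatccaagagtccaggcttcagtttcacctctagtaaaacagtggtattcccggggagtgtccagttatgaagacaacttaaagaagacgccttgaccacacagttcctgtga
Mcpt4 promoter, chr14:56062261-56062560, minus strand: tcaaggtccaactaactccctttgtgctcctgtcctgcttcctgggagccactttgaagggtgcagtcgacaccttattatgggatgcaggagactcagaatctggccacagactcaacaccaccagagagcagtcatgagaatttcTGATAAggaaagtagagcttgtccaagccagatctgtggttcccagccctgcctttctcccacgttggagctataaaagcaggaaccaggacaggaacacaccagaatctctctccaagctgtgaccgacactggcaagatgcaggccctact
Cpa3 promoter, chr3:20242132-20242431, minus strand: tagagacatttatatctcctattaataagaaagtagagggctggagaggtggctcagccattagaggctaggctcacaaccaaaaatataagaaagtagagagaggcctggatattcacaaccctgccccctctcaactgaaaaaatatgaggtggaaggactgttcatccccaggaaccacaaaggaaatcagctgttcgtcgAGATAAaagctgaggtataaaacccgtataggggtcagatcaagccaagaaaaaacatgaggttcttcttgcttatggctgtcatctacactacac
Hdc promoter, chr2:126618629-126618928, minus strand: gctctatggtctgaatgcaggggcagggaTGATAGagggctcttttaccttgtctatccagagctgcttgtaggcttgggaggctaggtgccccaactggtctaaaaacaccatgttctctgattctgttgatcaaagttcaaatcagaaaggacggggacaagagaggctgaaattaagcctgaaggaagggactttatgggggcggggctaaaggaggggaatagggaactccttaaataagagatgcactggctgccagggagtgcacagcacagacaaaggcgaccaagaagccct
Of the 8 members with a window in the RefSeq table, 6 held at least 1 match, namely Cma1, Mcpt4, Cpa3, Hdc and Fcer1a with 1 each and Ms4a2 with 3. Kit and Gata2 held none. Over all 32851 windows of the table, 29.8% held at least 1 match and 7.77% held at least 2. A match of letters is a description and does not show that a factor binds. Tpsb2 and Tpsab1 had no window in the table.

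Chymases and tryptases are families of close relatives, so the sequences that they share bear on how their values can be read. The longest stretch that the coding sequences of Tpsb2 and Tpsab1 have in common lies in exon 2 of both, at chr17:25503833-25503870 (plus strand) and chr17:25481995-25482032 (minus strand) of mm9, and encodes the surroundings of the catalytic histidine. For Cma1 and Mcpt4 the longest common stretch joins exons 4 and 5 and encodes the surroundings of the catalytic serine.
Tpsb2 and Tpsab1: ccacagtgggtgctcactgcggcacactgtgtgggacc
Cma1 and Mcpt4: atacaagggagactctggaggacctct
These stretches are 38 and 27 bases long, and 74.8% of the aligned coding bases were identical between the 2 tryptases and 64.6% between the 2 chymases. A window of 150 bases, the length of 1 read, was never shared between any of the 10 members and another coding transcript. With windows of 50 bases, only Mcpt4 shared any, 58 of 941 (6.16%), with Cma2 and Mcpt9. These 2 genes were at or below 0.576 FPKM in every library. No other annotated gene overlaps the exons of a member.

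None of the 8 mast cell genes that could be tested passed the threshold of the study for a difference between GSDMD KO mice and WT mice, an adjusted p under 0.05 with an absolute log2 fold change above 1. All 8 were lowest in KO replicate 2, while KO replicate 1 was at or above the WT level for most. Hdc was the exception, with both KO libraries below both WT libraries, as in 20.5% of all tested genes. Of the 10 members 8 reached 1 FPKM in at least 2 libraries and were tested with limma on log2(FPKM + 1), and 0 of the 8 were called, against 0.0% of all 13027 tested genes. At an unadjusted p under 0.05 past the same fold limit, 1 member was lower (Hdc; background 4.14% of all tested genes) and 0 were higher (background 6.16%). The log2 fold change was below 0 for 7 of the 8, with a median of -0.57, beside a median of 0.11 over all tested genes. In whole skin, a difference in the number of mast cells and a difference in RNA per mast cell cannot be told apart.

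**Figure D1:**
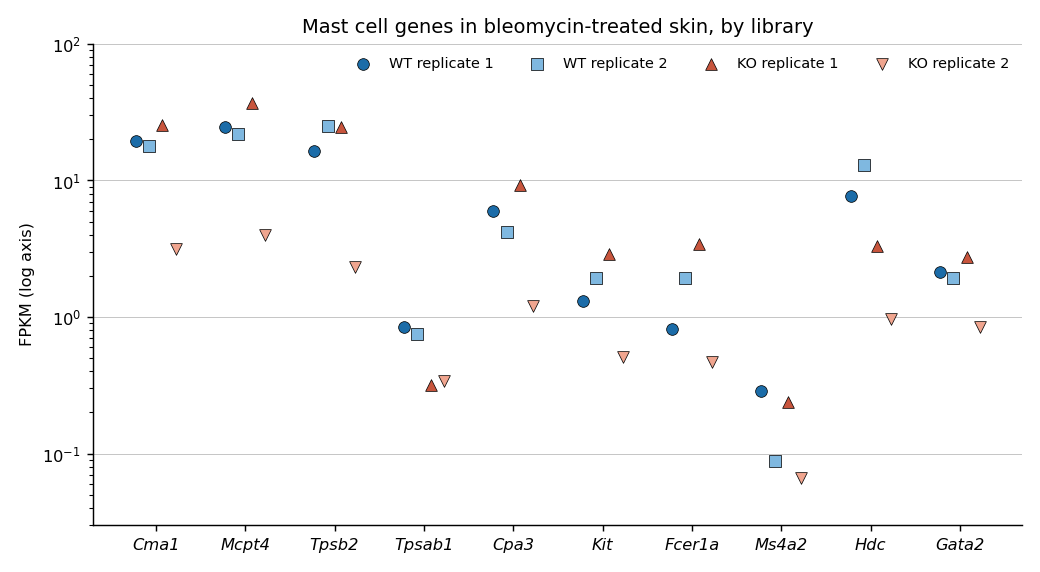
FPKM (log axis) of the 10 mast cell genes in each of the 4 libraries, 1 point per library. KO replicate 2 is the lowest point for 9 of the 10 genes (33.3% of all tested genes). For Hdc and Tpsab1 both KO points lie under both WT points (20.5% of all tested genes).

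Among the proteases, Mcpt4, the main connective tissue chymase and the functional counterpart of human chymase, had the highest mean level in both groups, although Tpsb2 was above it in WT replicate 2. It lies on chr14:56678581-56681147 of mm9 (minus strand, 5 exons) and was at 24.7 and 21.7 FPKM in the WT libraries and at 37.1 and 4.0 FPKM in KO replicates 1 and 2. The KO libraries thus lay on either side of the WT pair. The log2 fold change was -0.81 with a standard error (SE) of 0.95 (limma adjusted p = 0.651, Benjamini-Hochberg over all tested genes). Cma1, which encodes mouse mast cell protease 5 and lies in the same chymase cluster as Mcpt4 (chr14:56560288-56563512, minus strand, 5 exons), showed the same order. It was at 19.3 and 18.0 FPKM in WT mice and at 25.6 and 3.17 FPKM in GSDMD KO mice, or 18.7 ± 0.920 and 14.4 ± 15.9 FPKM (mean ± SD, n = 2 each). The log2 fold change of Cma1 was -0.90 (SE 0.87, limma adjusted p = 0.583).

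Tpsb2, the tryptase called mouse mast cell protease 6 (chr17:25503278-25505037 in the table, plus strand, 5 exons), was at 16.4 and 24.9 FPKM in WT mice and at 24.7 and 2.32 FPKM in GSDMD KO mice. WT replicate 2 and KO replicate 1 were nearly equal, and KO replicate 2 was far below the rest. The log2 fold change was -1.20 (SE 0.97, limma adjusted p = 0.517). The annotated gene spans chr17:25503486-25505804 in GENCODE, so the table used a different gene model for it. Cpa3, a carboxypeptidase that trims peptides cut by chymase (chr3:20115515-20142080, minus strand, 11 exons), was at 5.99 and 4.20 FPKM in WT mice and at 9.31 and 1.20 FPKM in GSDMD KO mice. Its groups overlapped as well, with a log2 fold change of -0.34 (SE 0.75, limma adjusted p = 0.814).

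Tpsab1, the tryptase called mouse mast cell protease 7 (chr17:25480190-25482507, minus strand), was the low protease, and C57BL/6 mice are known to carry a splice defect in it and to lack the protein. It was at 0.847 and 0.745 FPKM in WT mice and at 0.317 and 0.342 FPKM in GSDMD KO mice. Both KO values lay under both WT values, but they rest on an estimated 17.6, 12.7, 5.21 and 5.20 fragments in that order, and the gene was too low to be tested. Unlike the other proteases, Tpsab1 was not lowest in KO replicate 2.

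Of the receptors, Kit (chr5:75971012-76052746, plus strand, 21 exons), the tyrosine kinase that binds stem cell factor, was at 1.31 and 1.92 FPKM in WT mice and at 2.92 and 0.510 FPKM in GSDMD KO mice. The 2 KO libraries were the highest and the lowest of the 4. Its log2 fold change was -0.09 (SE 0.50, limma adjusted p = 0.931). Melanocytes also carry Kit, and their 7 listed markers summed to 16.1 and 11.0 FPKM in WT mice and to 88.1 and 13.5 FPKM in GSDMD KO mice. Of these 7 markers 6 were highest in KO replicate 1, the library that also had the highest Kit, and 0 were at 0 in any library. Their part in the Kit values was not tested.

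Fcer1a, the chain of the high-affinity receptor that binds IgE (chr1:175151402-175157360, minus strand, 5 exons), was at 0.821 and 1.94 FPKM in WT mice and at 3.45 and 0.465 FPKM in GSDMD KO mice. Again KO replicate 1 was the highest library and KO replicate 2 the lowest, with an estimated 48.8 and 6.09 fragments. It was the only tested member with a log2 fold change above 0, at 0.14 (SE 0.59, limma adjusted p = 0.910), and without WT replicate 1 the value was -0.20. Ms4a2, the signal-amplifying beta chain of the same receptor (chr19:11690011-11698209, minus strand, 6 exons), was at 0.288 and 0.0878 FPKM in WT mice and at 0.239 and 0.0659 FPKM in GSDMD KO mice. With an estimated 2.01 to 12.0 fragments per library it was not tested, and a difference between the groups was not detectable at this depth.

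Hdc, histidine decarboxylase, which makes histamine from histidine (chr2:126419396-126444414, minus strand, 12 exons), was at 7.68 and 12.9 FPKM in WT mice and at 3.31 and 0.968 FPKM in GSDMD KO mice. The group values were 10.3 ± 3.69 and 2.14 ± 1.66 FPKM (mean ± SD, n = 2 each), and the groups did not overlap. The log2 fold change was -1.91 (SE 0.47, unadjusted p = 0.00942 in limma's fit over all genes), and the adjusted p was 0.248, so the difference was not called. An exact permutation test of 2 against 2 libraries cannot give a two-sided p below 0.33. The groups stood apart with KO lower for 20.5% of all tested genes, for Hdc alone among the 8 tested members, and for Hdc and Tpsab1 among all 10. They stood apart with KO higher for 0 of the 10 members, beside 35.3% of all tested genes.

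Hdc is not particular to mast cells, and the marker sums of neutrophils and macrophages were likewise lower in both KO libraries than in both WT libraries. The 8 neutrophil markers summed to 761 and 626 FPKM in WT mice and to 309 and 149 FPKM in GSDMD KO mice. S100a8 and S100a9 supplied most of each sum. S100a8 was at 440 and 287 FPKM in WT mice and at 151 and 107 FPKM in GSDMD KO mice. S100a9 was at 312 and 322 FPKM in WT mice and at 153 and 41.0 FPKM in GSDMD KO mice. Of the 8 markers 6 had both KO libraries below both WT libraries, beside 20.5% of all tested genes. Of these 6, Ly6g and Mpo were near or below the level of 3 fragments in WT mice (0.238 and 0.0928 FPKM, and 0.0227 and 0.0278 FPKM) and at 0 in both KO libraries. For the 10 macrophage markers the sums were 836 and 1087 FPKM in WT mice, against 483 and 48.9 FPKM in GSDMD KO mice, with 7 of the 10 lower in both KO libraries and 0 at 0 in any library. The 7 basophil genes summed to 14.3 and 19.8 FPKM in WT mice and to 14.6 and 5.11 FPKM in GSDMD KO mice. Of these, Il3ra, a chain of the interleukin-3 receptor, was at 6.81, 13.1, 7.58 and 2.77 FPKM and Il6ra, of the interleukin-6 receptor, at 6.33, 5.89, 6.48 and 1.93 FPKM in WT replicates 1 and 2 and KO replicates 1 and 2. The other 5 basophil genes stayed under 1 FPKM in every library. The part of these cells in the Hdc values was not tested.

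Gata2 (chr6:88143885-88157026, plus strand, 6 exons), a zinc finger factor that mast cell precursors depend on, was at 2.12 and 1.93 FPKM in WT mice and at 2.77 and 0.845 FPKM in GSDMD KO mice. Its log2 fold change was -0.20 (SE 0.40, limma adjusted p = 0.801), and the KO libraries were again the highest and the lowest. The 10 endothelial markers summed to 115 and 182 FPKM in WT mice and to 152 and 20.4 FPKM in GSDMD KO mice, with 10 of 10 lowest in KO replicate 2 and 0 at 0 in any library. The part of the endothelium in the Gata2 values was not tested.

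In WT skin the members ranked from Mcpt4 (23.2 ± 2.07 FPKM, mean ± SD, n = 2) through Tpsb2 (20.7 ± 5.95), Cma1, Hdc, Cpa3 (5.10 ± 1.26), Gata2 (2.03 ± 0.135), Kit (1.61 ± 0.436), Fcer1a (1.38 ± 0.789) and Tpsab1 (0.796 ± 0.0726) to Ms4a2 (0.188 ± 0.141). The ranges of the 2 WT libraries overlapped between Mcpt4 and Tpsb2, between Tpsb2 and Cma1, between Kit and Fcer1a and between Fcer1a and Tpsab1, so these neighbours were not separated by their spread. The other neighbours did not overlap. In both KO libraries the order began with Mcpt4, Cma1, Tpsb2 and Cpa3, and Hdc stood below Cpa3, whereas in both WT libraries Hdc stood above it.

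The split between the KO libraries had a measurable size. KO replicate 2 was the lowest library for 9 of the 10 members and for 8 of the 8 tested ones, beside 33.3% of all tested genes. KO replicate 1 was the highest for 6 of the 10, beside 18.9%, and in 7.41% of all tested genes both held at once. KO replicate 2 was at least 1 log2 unit below the mean of the other 3 libraries for 5 of the 8 tested members, namely Cma1, Mcpt4, Tpsb2, Cpa3 and Hdc, beside 11.5% of all tested genes. On the linear scale the mean of the other 3 libraries was 9.48 times KO replicate 2 for Tpsb2, 8.22 times for Hdc, 6.97 times for Mcpt4, 6.61 times for Cma1 and 5.44 times for Cpa3. For the receptors this ratio was 4.02 (Kit) and 4.45 (Fcer1a), and for Gata2 it was 2.69. KO replicate 1, in contrast, stood at 1.20 to 1.83 times the WT mean for Cma1, Mcpt4, Tpsb2, Cpa3, Kit and Gata2, at 2.50 times for Fcer1a and at 0.322 times for Hdc.

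Leaving out 1 KO library changed the comparison. Without KO replicate 1, 5 of the 7 members that could be fitted were called lower: Tpsb2 (log2 fold change -2.68, limma adjusted p = 0.00409), Hdc (-2.48, 0.00627), Mcpt4 (-2.27, 0.0048), Cma1 (-2.23, 0.00492) and Cpa3 (-1.46, 0.0299). In the same fit 9.26% of all genes were called lower and 5.96% higher. Kit (-0.78, adjusted p = 0.156) and Gata2 (-0.71, adjusted p = 0.172) were not called. This fit sets 2 WT libraries against 1 KO library, which is assumed to vary as the WT libraries do. Without KO replicate 2, 0 of the 8 were called, beside 0.118% of all genes called lower and 0.126% called higher. Of the 8 members 7 then had log2 fold changes above 0, from 0.28 for Tpsb2 to 0.94 for Fcer1a. Hdc was at -1.35 (adjusted p = 0.207), and was thus the only tested member with a value below 0 whichever KO library was used.

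**Figure D2:**
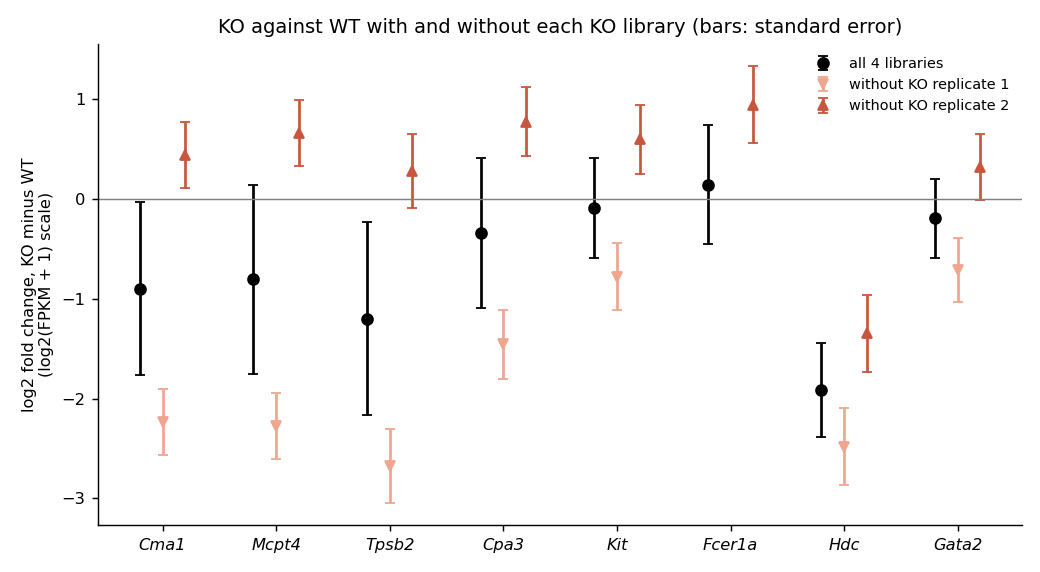
Log2 fold change, KO minus WT, on the log2(FPKM + 1) scale for the tested mast cell genes, with all 4 libraries and without each KO library (bars: standard error). Hdc lies below 0 in all 3 fits, from -2.48 to -1.35, whereas the proteases lie between -2.68 and -1.46 without KO replicate 1 and between 0.28 and 0.77 without KO replicate 2. Fcer1a could not be fitted without KO replicate 1.

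Although their level differed between the libraries, the 4 higher proteases kept similar proportions to each other, whereas Tpsab1 did not. The 5 protease genes summed to 67.2 and 69.6 FPKM in WT mice and to 97.1 and 11.0 FPKM in GSDMD KO mice. Mcpt4 made up 31.2 to 38.3% of this sum, Cma1 25.9 to 28.8% and Cpa3 6.05 to 10.8%, while Tpsb2 made up 35.8% in WT replicate 2 and 21.1 to 25.5% in the other libraries. Tpsab1, with few fragments, made up 0.326 to 3.10% of the sum, and its ratio to Mcpt4 was 0.0344 and 0.0343 in WT mice and 0.00853 and 0.0855 in GSDMD KO mice, a wider spread than that of Hdc. Per Mcpt4, Cma1 was at 0.783 and 0.829 in WT mice and at 0.689 and 0.794 in GSDMD KO mice, so the highest ratio was 1.20 times the lowest. The corresponding spread was 1.55 times for Cpa3 and 1.97 times for Tpsb2. For Hdc the ratio to Mcpt4 was 0.311 and 0.594 in WT mice and 0.0892 and 0.242 in GSDMD KO mice, a spread of 6.66 times. The log2 ratio of Hdc to Mcpt4 was lower by 1.55 in GSDMD KO mice, with both KO libraries below both WT libraries, at the smallest p that the exact permutation test can give here (0.33, two-sided; 0.40 when adjusted over the 6 ratios tested). The other 5 ratios, of Hdc to Cma1 and Cpa3 and of Cma1, Tpsb2 and Cpa3 to Mcpt4, had exact permutation p-values of 0.33 or 0.67 (0.40 or 0.67 when adjusted). Among these 5, only Cma1 to Mcpt4 had groups that overlapped. Tpsb2 to Mcpt4 was at 0.667 and 1.14 in WT mice and at 0.665 and 0.581 in GSDMD KO mice. Cpa3 to Mcpt4 was at 0.243 and 0.194 in WT mice and, higher, at 0.251 and 0.299 in GSDMD KO mice.

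**Figure D3:**
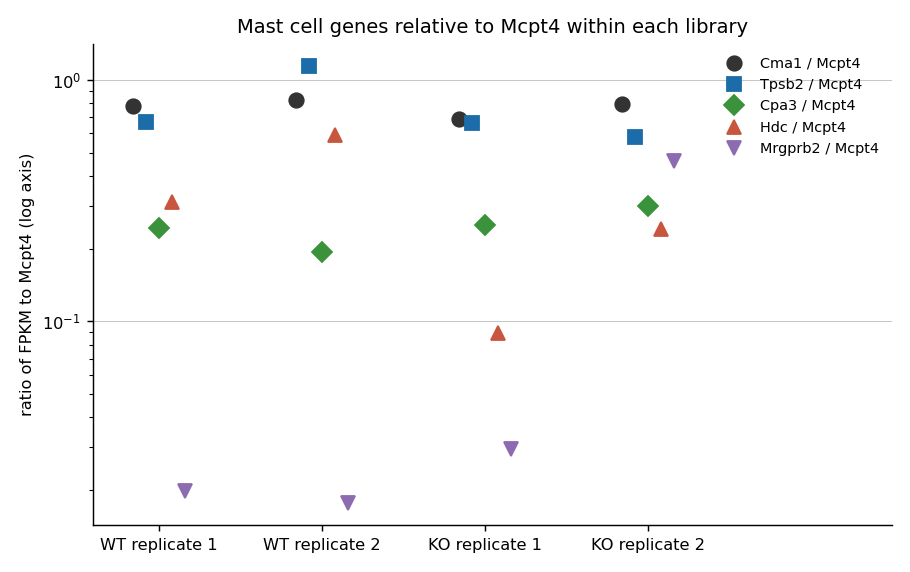
Ratio of the FPKM of Cma1, Tpsb2, Cpa3, Hdc and Mrgprb2 to that of Mcpt4 within each library (log axis), 1 point per gene and library. Cma1 stays between 0.689 and 0.829, Hdc is lowest in KO replicate 1 at 0.0892, and Mrgprb2 reaches 0.462 in KO replicate 2 from 0.0176 to 0.0294 elsewhere.

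Of 16 further mast cell genes only 2 reached 1 FPKM in 2 libraries and were tested, and 4 to 6 of the 16 were at 0 in a given library. Mrgprb2, the receptor through which basic peptides and drugs activate connective tissue mast cells without IgE, did not share the pattern of the proteases. It was at 0.487 and 0.383 FPKM in WT mice and at 1.09 and 1.85 FPKM in GSDMD KO mice, an estimated 17.6, 11.4, 31.3 and 48.9 fragments. Both KO libraries were above both WT libraries, and the highest value was in KO replicate 2, where the proteases were lowest. The log2 fold change was 0.77 (SE 0.27, limma adjusted p = 0.272). Il1rl1, the receptor of interleukin-33, was at 1.91 and 0.760 FPKM in WT mice and at 1.08 and 0.255 FPKM in GSDMD KO mice (log2 fold change -0.49, limma adjusted p = 0.523). Tph1, which makes serotonin in mast cells, was at 0.470 and 1.04 FPKM in WT mice and at 0.400 and 0.0716 FPKM in GSDMD KO mice. Of the 16 genes 3 had both KO values above both WT values (35.3% of all tested genes) and 3 had both below (20.5%). These shares cover tested genes only, whereas most of the 16 were too low to be tested. Of the mucosal mast cell proteases, Mcpt2 was at 0 in every library and Mcpt1 was at 0.273 FPKM in WT replicate 1 alone.

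Most listed genes of IgE receptor signalling, which include the receptor chain Fcer1g, had both KO values under both WT values, 11 of 16, beside 20.5% of all tested genes. Of the 16 genes 15 were tested, 13 had a log2 fold change below 0, 7 of these had an unadjusted p under 0.05 past the fold limit (4.14% of all tested genes), and 0 were called. The median log2 fold change was -1.04. Fcer1g, the gamma chain that the IgE receptor shares with other Fc receptors of myeloid cells, was at 203 and 241 FPKM in WT mice and at 92.4 and 10.9 FPKM in GSDMD KO mice (log2 fold change -2.74, SE 0.96, limma adjusted p = 0.271). Syk, the kinase that docks on this chain, was at 10.7 and 14.6 FPKM in WT mice and at 5.35 and 1.55 FPKM in GSDMD KO mice (-1.75, adjusted p = 0.248). Vav1, an exchange factor for Rac, was at 4.56, 7.89, 2.15 and 0.279 FPKM in the same order (-1.81, adjusted p = 0.248), and the adaptor Lcp2, whose exons overlap an annotated transcript, had a log2 fold change of -1.75 (adjusted p = 0.248). These genes serve macrophages and neutrophils too, whose marker sums are given beside Hdc. The ratio of Fcer1a to Fcer1g was 0.00405 and 0.00802 in WT mice and 0.0373 and 0.0428 in GSDMD KO mice, so the Fcer1a level was far below the Fcer1g level in every library. The part of other cells in these values was not tested.

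Genes for granules and mediators were mixed. Of 19 tested, 8 had a log2 fold change above 0 and 11 below it, with a median of -0.31, and 0 were called. At the unadjusted limits 4 were lower, beside 4.14% of all tested genes, and 1 was higher, beside 6.16%. Serglycin (Srgn), the proteoglycan core that holds granule proteases in mast cells and is made by most other blood cells, was at 123 and 103 FPKM in WT mice and at 34.9 and 10.1 FPKM in GSDMD KO mice (log2 fold change -2.51, SE 0.58, limma adjusted p = 0.248). The other 3 genes past the unadjusted limits in this direction were Alox5ap, Ltc4s and Alox5. Alox5ap, which presents arachidonic acid to 5-lipoxygenase, was at 109 and 198 FPKM in WT mice and at 42.8 and 7.84 FPKM in GSDMD KO mice (-2.91, adjusted p = 0.248). Ltc4s, which makes leukotriene C4 and whose exons overlap an annotated transcript, was at 60.3 and 209 FPKM in WT mice and at 27.0 and 6.03 FPKM in GSDMD KO mice (-3.02, adjusted p = 0.248). For Alox5, the 5-lipoxygenase itself, the log2 fold change was -1.57 (adjusted p = 0.260). Macrophages and neutrophils carry these genes too, and the part of those cells, whose marker sums are given beside Hdc, was not tested. The one gene past the unadjusted limits in the other direction was Ptgs1, the constitutive cyclooxygenase, at 13.4 and 6.49 FPKM in WT mice and at 25.4 and 25.9 FPKM in GSDMD KO mice (1.36, adjusted p = 0.248); it is named after its values were seen. Of 7 genes for histamine receptors and breakdown 2 were tested and 0 called. Hnmt, which methylates histamine, was at 3.21 and 3.10 FPKM in WT mice and at 2.97 and 1.86 FPKM in GSDMD KO mice (-0.30, adjusted p = 0.562). Maob, a monoamine oxidase, was at 11.2 and 13.4 FPKM in WT mice and at 8.92 and 5.24 FPKM in GSDMD KO mice (-0.75, adjusted p = 0.306).

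Of 6 factors that support mast cells 4 were tested, 3 had a log2 fold change above 0, and 0 passed even the unadjusted limits. Kitl, which encodes stem cell factor, was at 3.39 and 1.91 FPKM in WT mice and at 5.69 and 4.02 FPKM in GSDMD KO mice (log2 fold change 0.70, limma adjusted p = 0.337). Il33, an alarmin of epithelium and stroma, was at 12.1 and 5.53 FPKM in WT mice and at 16.4 and 13.3 FPKM in GSDMD KO mice (0.77, adjusted p = 0.361). Tslp, another epithelial alarmin, was at 1.73 and 0.568 FPKM in WT mice and at 2.94 and 1.95 FPKM in GSDMD KO mice (0.72, adjusted p = 0.358). In these 3 of the 6 genes both KO libraries were above both WT libraries, as they were in 35.3% of all tested genes. Tgfb1, a cytokine that acts on mast cells and drives fibrosis, was at 18.2 and 21.3 FPKM in WT mice and at 18.4 and 7.64 FPKM in GSDMD KO mice (-0.68, adjusted p = 0.435), and was lowest in KO replicate 2 like most of the mast cell genes. Il3 and Il9 were at 0 in every library. Keratinocyte markers, from a source of several of these factors, summed to 4966 and 3555 FPKM in WT mice and to 10689 and 5172 FPKM in GSDMD KO mice, and their part was not tested.

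**Figure D4:**
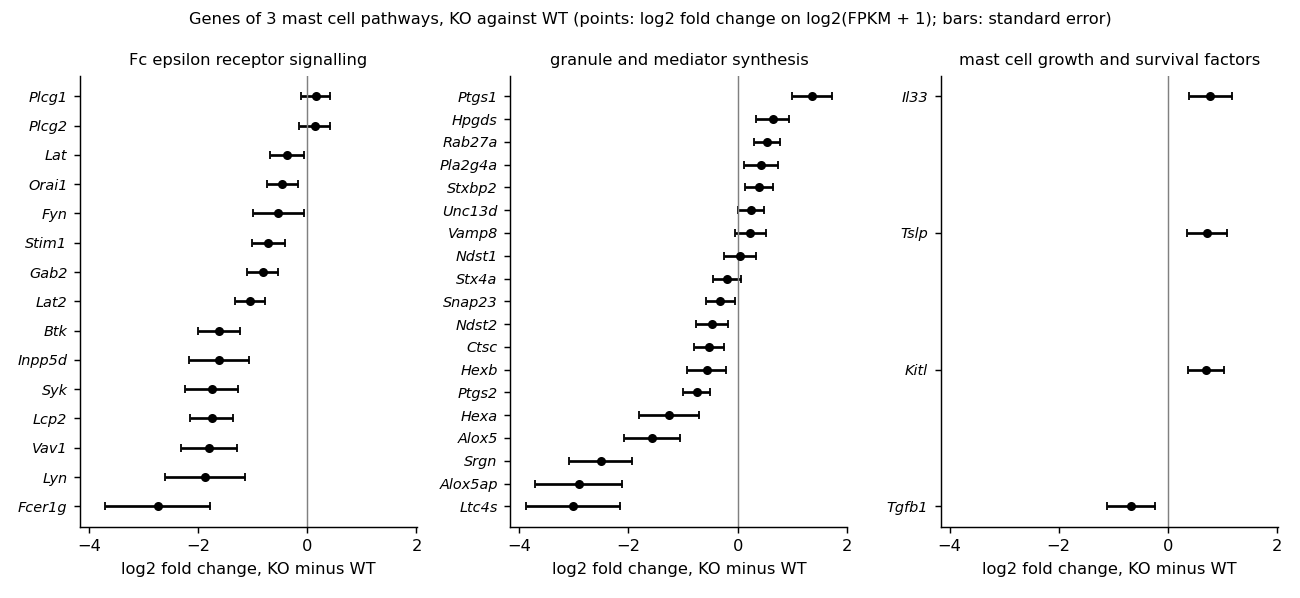
Log2 fold change, KO minus WT (points; bars: standard error), of the tested genes of 3 lists: 15 genes of Fc epsilon receptor signalling, 19 of granules and mediators, and 4 growth and survival factors. In the first list 13 of 15 points lie below 0, in the second 11 of 19, and in the third 1 of 4 (Tgfb1).

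The low level of the proteases in KO replicate 2 was shared by markers of other dermal cells. The 9 fibroblast markers summed to 369 and 278 FPKM in WT mice and to 590 and 53.9 FPKM in GSDMD KO mice, with 9 of 9 lowest in KO replicate 2 and 8 of 9 highest in KO replicate 1. None of these markers was at 0 in any library. Relative to the fibroblast list, the mean log2(FPKM + 1) of the 4 tested proteases was -0.81 and -0.48 in WT mice and -0.89 and -0.50 in GSDMD KO mice, so the KO range lay close to the WT range. Relative to the endothelial list it was 0.73 and 0.15 in WT mice and 0.89 and 0.57 in GSDMD KO mice. Relative to the macrophage list it was -1.32 and -1.65 in WT mice and -0.20 and -0.31 in GSDMD KO mice, above the WT range in both KO libraries. Relative to the keratinocyte list it was -4.36 and -3.69 in WT mice and -4.93 and -6.11 in GSDMD KO mice, below the WT range in both. The 5 adipocyte markers were all lowest in KO replicate 2, with sums of 1753 and 4798 FPKM in WT mice, against 2221 and 208 FPKM in GSDMD KO mice. In KO replicate 1, hair follicle markers summed to 366 FPKM, beside 1.82 to 15.5 FPKM in the other 3 libraries, with 12 of 12 highest there. The part of these cells in the values of the mast cell genes was not tested.

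**Figure D5:**
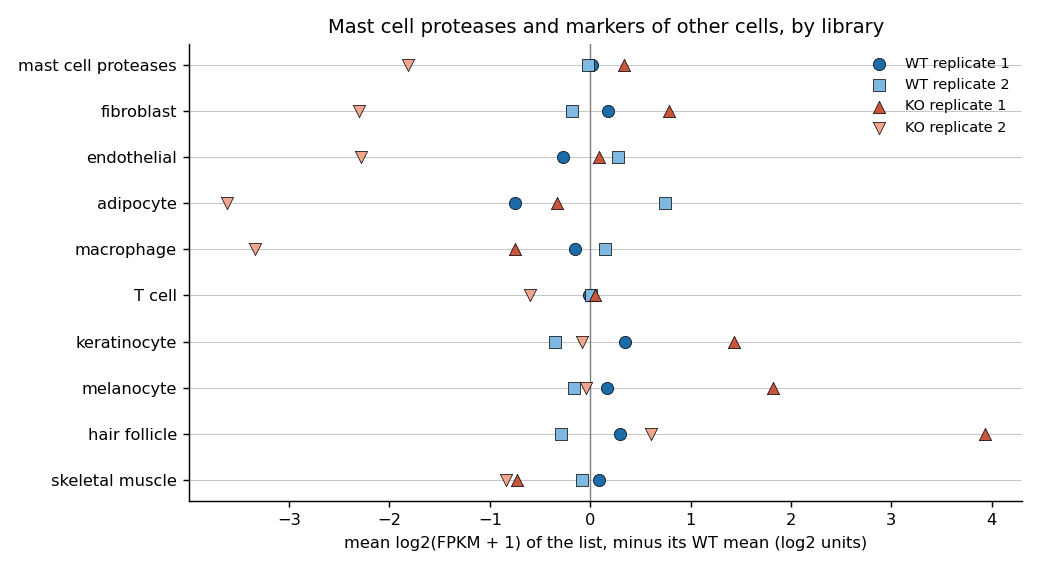
Mean log2(FPKM + 1) of the 5 mast cell proteases and of 9 marker lists in each library, minus the WT mean of the same list (log2 units). KO replicate 2 lies far left of the other points for the proteases, fibroblasts, endothelium, adipocytes and macrophages, and KO replicate 1 lies far right for hair follicle and melanocyte markers.

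Among the 8 genes outside the list whose levels over the 4 libraries were most like those of the proteases were Cygb, S1pr1, C1s1, Prelp, Ly6c1, Pcolce and Ace, at Euclidean distances of 0.112 to 0.267 log2 units from the mean profile of the 4 tested proteases. Over only 4 libraries such nearness is a description. Cygb, a globin of fibroblasts, was at 10.5 and 9.24 FPKM in WT mice and at 14.0 and 1.34 FPKM in GSDMD KO mice. S1pr1, a receptor of endothelium and lymphocytes, was at 8.62, 7.97, 11.1 and 0.929 FPKM in the same order. Among all 13027 tested genes Cma1 ranked 1, Mcpt4 6, Tpsb2 83 and Cpa3 101 by this distance, which all 4 helped to define, and Kit ranked 651, Gata2 904, Fcer1a 907 and Hdc 2101.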

How the data were processed

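The series holds RNA-seq of BLM-treated skin, with 2 WT and 2 GSDMD KO libraries grouped by their labels. The submitters' processing notes name HISAT2 version 2.0.1, StringTie version 2.0.6 and build mm9, and the authors describe counting reads per gene and testing with DESeq2. The table they deposited is named as counts but is in FPKM, since 99.993% of its entries above 0 are not whole. The program that made them is not given in the sources used here. A count model was therefore not used, and the authors' division by length and depth could not be undone. Of 24441 rows 0 lack a name and 26 carry a date in place of one. Loci overlapped the GENCODE annotation of mm9 for 99.2% of 20310 genes found by symbol.

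Values were transformed to log2(FPKM + 1), which understates the change of low genes. A gene was tested when 2 or more libraries reached 1 FPKM, which left 13027. The limma fit (version 3.58.1, R version 4.3.3) had genotype alone as a term and an empirical Bayes trend, and its two-sided p-values were adjusted over all 13027 genes by the Benjamini-Hochberg method. The code was tested on simulated data. Fragments per gene were estimated from the smallest steps between values of 2710 single-transcript genes of 2 kb or more, which put 1 fragment on 1 kb at 0.0574 to 0.0783 FPKM. They are approximate, cover counting error only and gave no interval.

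The 10 members, the marker and pathway lists and the tests were chosen with earlier results of these data known, so no list was tested as a list. Named genes are the members, Gsdmd, up to 4 genes of each described pathway list by absolute log2 fold change past the unadjusted limits, every mast cell, basophil and growth factor gene with at least 1 FPKM in a library, and the 8 nearest profiles. Of the genes that this rule gives, 2 are not reported here. Marker lists are given by sums and counts. Ptgs1, Syk, Hnmt, Maob, S100a8, S100a9, Ly6g, Mpo, Mcpt1, Mcpt2, Cma2, Mcpt9, Il3 and Il9 fall outside this rule and were named after their values were seen. Nothing states how biopsies or extractions were batched, and 1 mouse stood behind each library as far as the labels say, so p-values measure the spread between 2 libraries per group. Same-numbered libraries were treated as unpaired. Alternatives were upper-quartile and median-ratio scaling, pseudocounts of 0.1 and 0.5, no filter and a filter of 5 FPKM, no trend, a replicate block, and leaving out each library. Coding sequences were aligned with Biopython version 1.88, and all other steps used pandas version 2.3.3 under Python version 3.11.15.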

Additional observations from a re-analysis of the deposited data

How the results depend on the processing

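In 69 combinations of a tested member with an alternative that kept every library, the direction and the side of the threshold stayed as reported in 69. Changing the filter, dropping the trend or adding a block cannot alter a log2 fold change in this design. For those alternatives only the side of the threshold could change, so their unchanged direction carries no information. With 1 library left out, 17 of 30 combinations stayed, 8 turned direction and 5 became called, the latter all without KO replicate 1. The number of genes called was 0 with all libraries, 1920 without KO replicate 1 and 31 without KO replicate 2, so that leaving out a library gave 0 to 1920. The number of members called ranged from 0 to 5, and the median of the members from -2.23 (without KO replicate 1) to 0.52 (without KO replicate 2). Over the libraries left out, the log2 fold change ranged from -2.23 to 0.44 for Cma1, -2.27 to 0.66 for Mcpt4, -2.68 to 0.28 for Tpsb2, -1.46 to 0.77 for Cpa3, -0.78 to 0.59 for Kit, -0.71 to 0.32 for Gata2, -0.20 to 0.94 for Fcer1a and -2.48 to -1.35 for Hdc. Fcer1a could not be fitted without WT replicate 2 or KO replicate 1, where it reached the filter in fewer than 2 libraries. Gsdmd was called (-2.38, limma adjusted p = 0.00469) without KO replicate 1 only.

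With an unadjusted p under 0.05 past the fold limit, 802 genes were higher and 539 lower. Median-ratio scaling gave 631 higher and 708 lower genes, and the counts without WT replicate 2 were 264 and 205, without KO replicate 1 were 1288 and 1600, and without KO replicate 2 included 336 lower genes. At this depth Ms4a2 and Tpsab1 cannot show a difference between the groups beyond their few fragments.

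Deviations of same-numbered libraries had a correlation of -0.20 over 13027 genes, and the labels tie the numbers to no litter or batch. With the replicate number as a block, 0 genes and 0 members were called, and 907 genes were higher and 686 lower at the unadjusted limits. The median of the members was -0.57, which a block cannot change in this design. A block with the crossed pairing, chosen after seeing the data, also called 0 genes and 0 members.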
